A study of Mus musculus with 6 samples.

Results

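Cytosolic ribosomal proteins are the proteins of the large (Rpl) and small (Rps) subunits of the ribosome that translates nuclear-encoded mRNAs. Probe sets were taken as members when the platform annotation gave them a single gene symbol made of Rpl or Rps and a number, with at most an a, l or x after it, or one of Rplp0, Rplp1, Rplp2 and Rpsa. The rule found 67 genes with 128 probe sets, of 17097 genes with 28898 singly named probe sets in all. There were 43 genes of the large subunit and 24 of the small subunit, 34 with 1 probe set and 33 with 2 to 5. A further 15 probe sets carried a ribosomal protein symbol beside another symbol and were left out by the rule. All 67 symbols matched a RefSeq gene of the mouse assembly GRCm38.p6.

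By the paper's description the samples were fibroblasts derived from mouse embryonic stem cells, and the cell markers on the arrays are given below. There were 3 arrays labelled as CD98hc knock out (CD98hc KO, replicates 1, 3 and 5) and 3 labelled as wild type (WT, with the same replicate numbers). CD98hc, encoded by Slc3a2, is the heavy subunit of amino acid transporters, and the study asked how its loss affects nutrient supply, mTORC1 signalling and protein synthesis. Both groups were grown in the same high-glucose medium with serum and β-mercaptoethanol, and the sources used here give neither age nor a further treatment. Whether the 3 arrays of a label stand for separate cultures or clones is not stated, so the p-values below cover the variation among these 6 arrays alone, and that variation may be technical.

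A mammalian ribosome holds a single copy of nearly every ribosomal protein, so that the subunits are made from equal numbers of many different chains. Their mRNAs are among the most abundant of a growing cell. Most begin with a C followed by a run of pyrimidines, the terminal oligopyrimidine (TOP) tract, through which mTORC1 and the RNA-binding protein Larp1 control their translation. Array values measure the amount of an mRNA per total RNA and not its translation.

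The labels were first set against the arrays. Slc3a2 had log2 values of 11.65, 11.57 and 11.54 on the KO-labelled arrays, against 10.64, 10.67 and 10.51 on the WT-labelled arrays. The targeted gene was thus higher on the KO-labelled arrays by 0.98 (standard error 0.075, adjusted p = 0.000123 from limma), which goes against the label. It had 1 probe set, and whether this probe set lies within the deleted stretch is not stated in the sources used here. The arrays are therefore called KO-labelled and WT-labelled throughout. All 9 pluripotency markers measured were called higher on the KO-labelled arrays, with a mean level per array of 11.21 to 11.35 against 4.97 to 5.12 on the WT-labelled arrays. All 6 epithelial markers were higher too (8.2 to 8.4 against 4.83 to 4.94), while 9 of 12 fibroblast markers were lower and 1 was higher (5.83 to 6.07 against 9.39 to 9.91). Most markers of the described cell type were therefore lower on the KO-labelled arrays. Not all were low there, since Vim (mean 10.6, against 12.6 on the WT-labelled arrays) and Fn1 (10.0 against 10.7, not called) kept high values. The part of this difference in cell markers, and of the label conflict, in every result below was not tested. In bulk RNA of this kind, a change in the share of a cell type and a change in the RNA per cell cannot be told apart.

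The annotated starts of 53 of the 67 genes were present in the promoter table of RefSeq on GRCm38.p6, which gives 250 bases before and 50 after each start. In 11 of these 53 genes (20.8%) at least 1 annotated start lay exactly on a C that opened an uninterrupted run of at least 5 C or T. This TOP form was found in 802 of 26972 other genes (2.97%). A gene with several annotated starts counted if any of them met the definition. An annotated start that is off by a few bases does not meet this definition. The tracts are shown for 6 members whose values are described below, Rps6, Rpl15, Rps10, Rps15a, Rpl14 and Rplp2. Each line gives 10 bases before and 20 bases from the start with the longest run, 5′ to 3′, with the pyrimidine run in capitals. The last line gives Rpl39l, a paralogue with no such run at an annotated start.
Rps6, chr4:86857348-86857377, minus strand: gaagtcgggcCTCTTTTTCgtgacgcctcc
Rpl15, chr14:18270967-18270996, minus strand: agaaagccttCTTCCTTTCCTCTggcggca
Rps10, chr17:27635225-27635254, minus strand: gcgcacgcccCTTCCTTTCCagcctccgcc
Rps15a, chr7:118116128-118116157, minus strand: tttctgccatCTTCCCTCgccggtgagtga
Rpl14, chr9:120571507-120571536, plus strand: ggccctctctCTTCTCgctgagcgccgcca
Rplp2, chr7:141447641-141447670, plus strand: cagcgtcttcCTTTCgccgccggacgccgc
Rpl39l, chr16:10170218-10170247, plus strand: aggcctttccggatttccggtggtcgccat
The run was 13 bases long in Rpl15, 10 in Rps10, 9 in Rps6, 8 in Rps15a, 6 in Rpl14 and 5 in Rplp2. The letters CCGGAAG, the core bound by ETS family factors, were found on either strand within the 300 bases of at least 1 start in 24 members (45.3%). The same held for 2659 other genes (9.86%). These matches describe the sequence only.

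For most members the KO-labelled and WT-labelled arrays gave nearly the same level. Each gene was first represented by its most variable probe set. By this choice 17 of the 67 genes were called higher on the KO-labelled arrays and 2 were called lower, at an adjusted p under 0.05 in limma, and 48 were not called. Over all 17097 genes, 22.6% were called higher and 19.2% lower by the same rule. The share of members called higher, 25.4%, was thus near that of all genes, and the share called lower, 2.99%, was below it. The median log2 fold change was 0.071 over the members and 0.018 over all genes. Counted by probe set, 19 of 128 (14.8%) were higher and 2 (1.56%) lower, against 16.8% and 16% of all 45037 probe sets tested. The 3 KO-labelled and 3 WT-labelled values did not overlap in 35 of the 128 probe sets (27.3%), against 45.9% of all probe sets. Calls with a change over 2-fold were found in 6 of the 128 probe sets (4.69%), from 5 genes, against 13.8% of all probe sets.

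**Figure D1:**
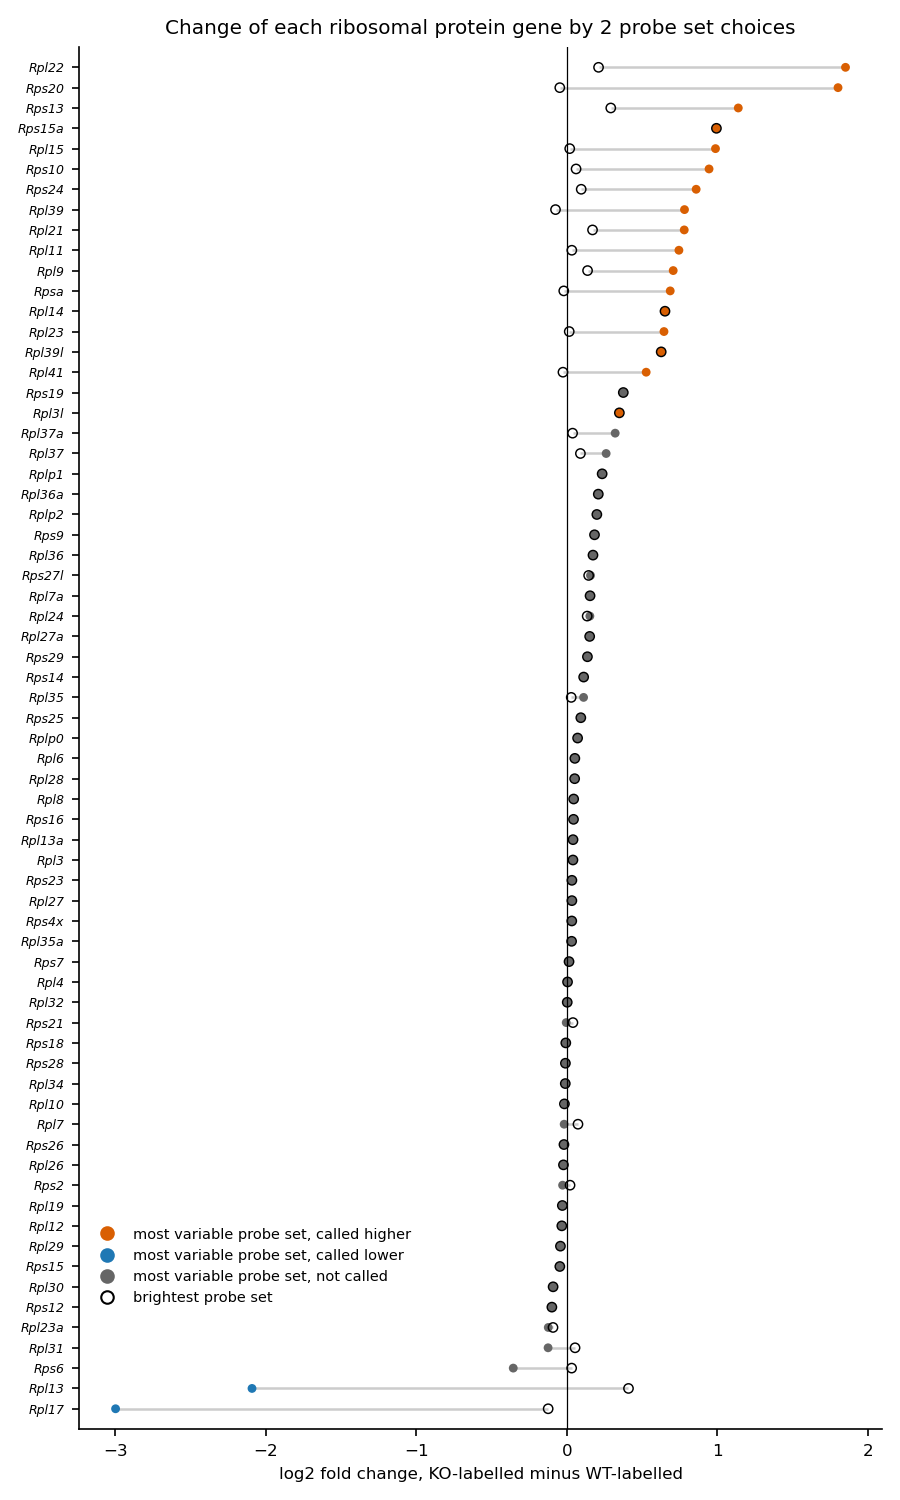
Log2 fold change (x axis, KO-labelled minus WT-labelled arrays, 3 each) of each of the 67 ribosomal protein genes (rows). Filled circles show the most variable probe set, coloured by its call, and open circles the brightest probe set; the open circles lie between -0.12 and 0.99, while the filled circles of Rpl22 and Rps20 reach 1.85 and 1.80 and those of Rpl17 and Rpl13 lie at -3.0 and -2.09.

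The calls depended on which probe set stood for a gene. When each gene was represented by its brightest probe set, the one with the highest mean over the 6 arrays, 4 genes were higher and 0 lower in limma (6 and 0 at an unadjusted p under 0.05), and the median log2 fold change was 0.040. By the same choice 21.3% of all genes were higher and 18.2% lower. These 4, Rps15a, Rpl14, Rpl39l and Rpl3l, had only 1 probe set. The other 13 genes called higher had 2 or more, and 0 of their brightest probe sets were called (1 had an unadjusted p under 0.05), with changes between -0.08 and 0.29. By brightest probe set, 57 of the 67 genes changed by less than 0.2 in either direction. Signals of different probe sets do not compare amounts of RNA, and brightness is used here only to sort the probe sets.

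Sorted by mean log2 level over the 6 arrays, 92 of the 128 probe sets, from 61 genes, lay above 11. Of these 1 was called higher and 0 lower in limma (4 and 0 at an unadjusted p under 0.05), and the median of their absolute changes was 0.047. Among 1018 other named probe sets above 11, 16.9% were higher and 15.6% lower, with a median absolute change of 0.20. Levels inside a bin were not matched. The median level of all 128 member probe sets was 11.92 to 12.13 on the arrays. Of the other probe sets, 814 lay at 11 to 12, with 10th to 90th percentile changes of -0.50 to 0.52. A further 198 lay at 12 to 13, where these percentiles were -0.24 and 0.21. Between 8 and 11, 8 of 19 members were higher and 2 lower, against 24.9% and 27.8% of other probe sets. Below 8, 10 of 17 members were higher and 0 lower (12 and 0 at an unadjusted p under 0.05), against 17.3% and 15.7%. The median log2 fold change of the members was 0.03 above 11, 0.37 between 8 and 11 and 0.63 below 8, while that of other probe sets was 0.03, 0.00 and 0.01 in the same bins. The difference between members and other probe sets was not tested. Across the 128 probe sets, which share arrays and in part transcripts, the change correlated with the mean level at Pearson's r = -0.307 and Spearman's rho = -0.394, given as a description.

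**Figure D2:**
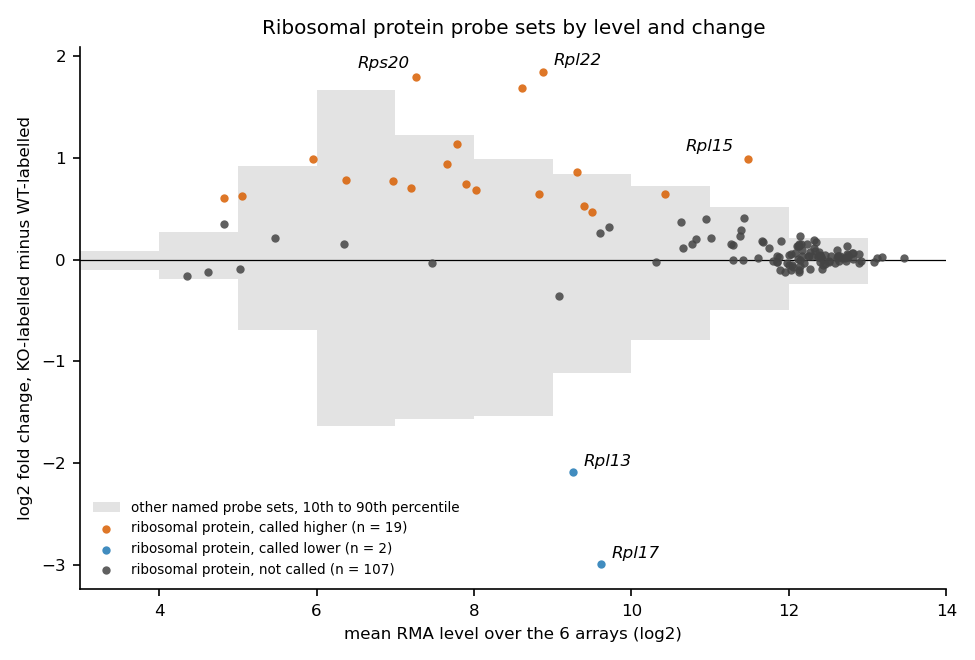
Log2 fold change (y axis, KO-labelled minus WT-labelled arrays) against mean RMA level in log2 (x axis) of the 128 ribosomal protein probe sets, coloured by call, with the 10th to 90th percentile of other named probe sets in each unit of level as grey boxes. Of the 92 probe sets above a level of 11, 86 lie within 0.2 of no change and a Rpl15 probe set reaches 0.99, and 20 of the 21 called probe sets lie at lower levels.

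The same was seen within genes. In 26 of the 33 members with 2 or more probe sets (78.8%) the brightest probe set had a smaller absolute change than the dimmest, as it did in 39.7% of 7147 other such genes. The dimmest probe set had the more positive change in 22 of 33 members (66.7%) and in 47.3% of other genes. The median of the dimmest minus the brightest change was small, at 0.06 in the members and -0.02 in other genes. The highest value on an array was 13.4 to 13.5, and the brightest member probe set had a mean of 13.5, so that the members above 11 lie in the top of the arrays' range. Brightness went together with the kind of probe set. Of 34 probe sets with the plain ending _at, 15 were higher and 1 lower at a median level of 9.35, while of 44 ending in _x_at, which hold probes that can match other transcripts, 1 was higher at a median level of 12.2. Of 43 ending in _a_at, which can match several transcripts of 1 gene, 2 were higher at a median level of 12.2. Below 8, 10 of 14 plain _at members were higher, against 0 of 3 ending in _x_at, and no member there ended in _a_at. Between 8 and 11, 4 of 7 plain _at members were higher and 1 lower. In that bin 1 of 5 ending in _x_at and 2 of 5 ending in _a_at were higher. Above 11, 1 of the 13 plain _at probe sets was called. Over all probe sets, 16.8% were higher and 16% lower, and their shares by kind were not counted. Ribosomal protein genes have many near-identical processed pseudogene copies, so cross-matching is uncertain for every member. The parts of saturation and of cross-matching in these results were not tested.

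Among small-subunit genes, Rps20, a protein of the subunit's head, had the largest change. One of its probe sets (1421935_PM_at) read 8.43, 8.11 and 7.94 on the KO-labelled arrays, against 6.40, 6.29 and 6.38 on the WT-labelled arrays. The lowest KO-labelled value lay well above the highest WT-labelled value. The log2 fold change was 1.80 (standard error 0.129, limma adjusted p = 9.6e-05 over genes). A second probe set, designed on the same sequence record, read 9.50, 9.58 and 9.27, against 8.00, 7.69 and 7.58 (log2 fold change 1.69). Its values did not overlap between the labels either. The 2 brightest probe sets of Rps20 differed by -0.05 (95% interval -0.40 to 0.30) and 0.01 (-0.35 to 0.37), intervals that do not hold the change of the dimmer pair.

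Rps13, a small-subunit protein found in all domains of life, was the only member with several probe sets whose values were apart between the labels in every probe set. Its dimmest probe set read 8.36, 8.47 and 8.23 on the KO-labelled arrays, against 7.60, 7.31 and 6.74 on the WT-labelled arrays, a change of 1.14 (standard error 0.214, adjusted p = 0.00583 in limma). The brighter probe sets differed by 0.29 (95% interval 0.04 to 0.54) and 0.40 (0.03 to 0.77), in the same direction and without passing the threshold. Rps15a, whose start is shown above, had 1 probe set, with 6.51, 6.70 and 6.12 on the KO-labelled arrays, against 5.53, 5.60 and 5.22 on the WT-labelled arrays. Its groups did not overlap and its change was 0.99 (standard error 0.173, adjusted p = 0.00417 in limma). Its WT-labelled values lay below the median of all probe sets on those arrays.

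The other small-subunit genes with a call, Rps24, Rps10 and Rpsa, had 1 called probe set each. Rps24, one of the genes mutated in Diamond-Blackfan anaemia in humans, read 9.94, 9.52 and 9.73 on the KO-labelled arrays, against 9.05, 8.83 and 8.74 on the WT-labelled arrays (change 0.86, adjusted p = 0.0025 in limma). Its 3 bright probe sets differed by 0.09, 0.15 and 0.13, all with intervals that held 0, and its dimmest by 0.21 (95% interval 0.03 to 0.39), apart between the labels but not called. Rps10, at the entry side of the mRNA channel, changed by 0.94 in its dim probe set (standard error 0.259, adjusted p = 0.0265 in limma) and by 0.06 and 0.02 in the 2 bright ones. Rpsa, the ribosomal protein also described as a laminin receptor, read 8.65, 8.08 and 8.36 on the KO-labelled arrays, against 7.83, 7.49 and 7.71 on the WT-labelled arrays (change 0.69, adjusted p = 0.0147 in limma). Its brighter probe set differed by -0.02 (95% interval -0.18 to 0.14). In the small subunit as a whole, 6 of 24 genes (25%) were higher and 0 lower in limma, the same counts as at an unadjusted p under 0.05. Over all genes, 22.6% were called higher and 19.2% lower.

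Rps6 was not called in the fit of all 6 arrays. It is the substrate of the S6 kinases by which mTORC1 activity is often read out, and it carries one of the TOP starts shown above. Its brightest probe set read 13.16, 13.29 and 13.15 on the KO-labelled arrays, against 13.17, 13.24 and 13.09 on the WT-labelled arrays. These values overlapped, with a difference of 0.03 (95% interval -0.16 to 0.22). A dimmer probe set read 8.84, 9.11 and 8.74, against 9.37, 9.40 and 8.98. Here too the groups overlapped, at -0.36 (95% interval -0.72 to 0.01). Without the WT-labelled replicate 5 array this probe set was called lower (-0.49, adjusted p = 0.0318 in limma). The dimmest was between 4.26 and 4.66 on all arrays, below the median of all probe sets.

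Among large-subunit genes, 11 of 43 (25.6%) were higher and 2 (4.65%) lower in limma, against 22.6% and 19.2% of all genes. Rpl22, an RNA-binding protein of the large subunit, read 9.82, 9.95 and 9.66 on the KO-labelled arrays, against 7.70, 7.84 and 8.33 on the WT-labelled arrays in one probe set. The groups were more than 1 unit of log2 apart, and the change was 1.85 (standard error 0.175, adjusted p = 0.000298 in limma). Its other probe set differed by 0.21 (95% interval -0.06 to 0.48). Rpl15, which has the longest of the pyrimidine runs shown, was the 1 member called above a level of 11. This probe set read 11.83, 12.15 and 11.95 on the KO-labelled arrays, against 10.93, 11.16 and 10.88 on the WT-labelled arrays, with no overlap and a change of 0.99 (standard error 0.116, adjusted p = 0.000775 in limma). The brighter Rpl15 probe set differed by 0.02 (95% interval -0.16 to 0.19).

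Rpl39, a short protein that lines the exit tunnel of the nascent chain, read 6.79, 6.74 and 6.74 on the KO-labelled arrays, against 6.06, 5.82 and 6.05 on the WT-labelled arrays in its dim probe set. The change was 0.78 (standard error 0.0857, adjusted p = 0.000562 in limma), and the bright probe set differed by -0.08 (95% interval -0.25 to 0.09). Rpl11, which with Rpl5 and 5S RNA binds Mdm2 and so links ribosome assembly to p53, changed by 0.74 in its dim probe set (adjusted p = 0.0223 in limma) and differed by 0.03 in its bright one. Rpl5 was not analysed here. Rpl21 (0.78), Rpl9 (0.71), Rpl14 (0.65) and Rpl23 (0.64), the last also known to bind Mdm2, were each called in 1 probe set. Of these Rpl14 has a single probe set. Rpl41, which encodes a very short basic peptide, was called in 2 probe sets designed on the same sequence record, with changes of 0.53 and 0.47, while its 2 bright probe sets differed by -0.03 each.

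The 2 genes called lower were lower in 1 probe set only. Rpl17, which sits near the tunnel exit, read 8.28, 8.17 and 7.88 on the KO-labelled arrays in one probe set (1453752_PM_at), against 11.20, 11.17 and 10.96 on the WT-labelled arrays. The labels lay far apart, with a change of -3.0 (standard error 0.127, adjusted p = 1.2e-05 in limma). A dimmer Rpl17 probe set went the other way, with 5.46, 4.97 and 4.93 on the KO-labelled arrays, against 4.44, 4.72 and 4.38 on the WT-labelled arrays (change 0.61, adjusted p = 0.0339 over probe sets in limma). All of its values lay below the median level of all probe sets, which was 5.6 to 5.7 on the arrays. The brightest differed by -0.12 (95% interval -0.48 to 0.23). Rpl17 was the 1 member with probe sets called in both directions, as were 46 of 7147 other genes with several probe sets. Rpl13 read 8.35, 7.94 and 8.35 on the KO-labelled arrays, against 10.21, 10.32 and 10.39 on the WT-labelled arrays in a probe set ending in _s_at, a kind that can match transcripts of several genes. Its change was -2.09 (standard error 0.13, adjusted p = 5.4e-05 in limma), and the groups did not overlap. The other Rpl13 probe set differed by 0.41 (95% interval -0.15 to 0.97), so that the direction for Rpl13 rests on the choice of probe set.

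**Figure D3:**
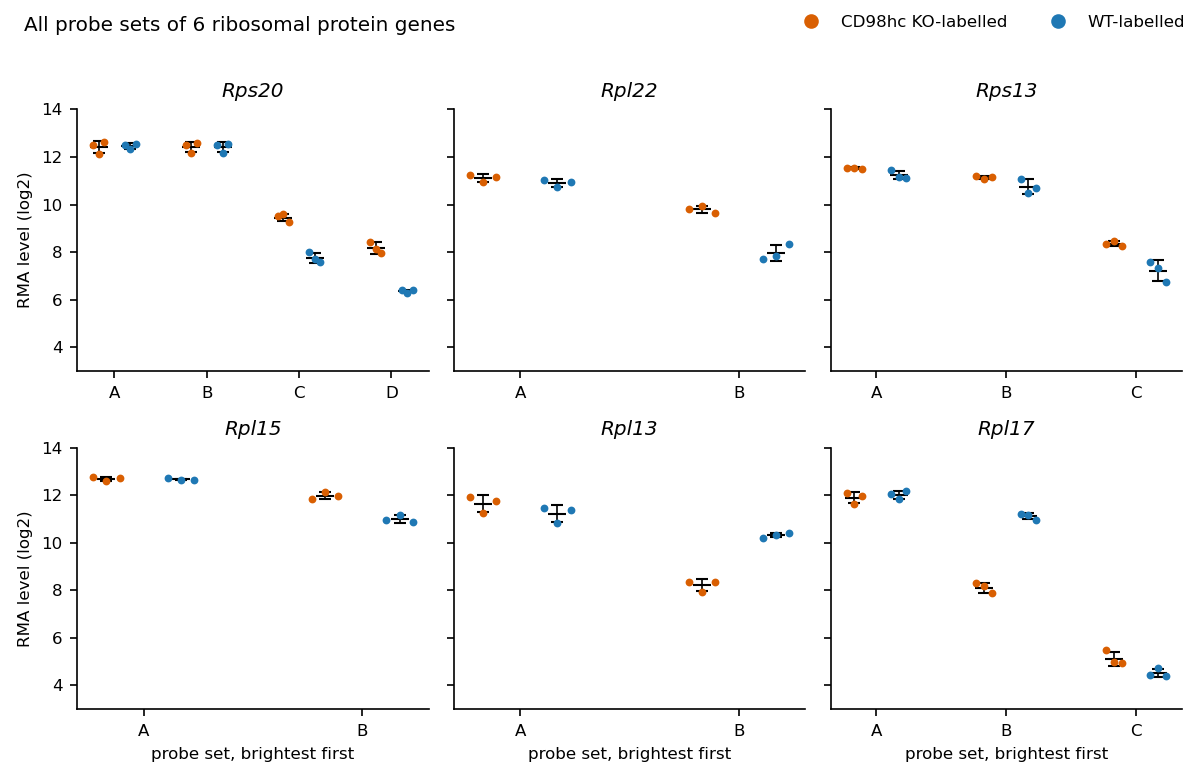
RMA level in log2 (y axis) of every probe set of Rps20, Rpl22, Rps13, Rpl15, Rpl13 and Rpl17, brightest first (x axis), on the KO-labelled (left, orange) and WT-labelled arrays (right, blue); points are arrays and bars mean ± SD of 3. The brightest probe set of each gene differs by at most 0.41 between the labels, while a dimmer one differs by 0.99 to 3.0.

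The proteins of the ribosomal stalk, which recruits the elongation factors, were not called in the fit of all 6 arrays. Rplp0, the stalk base, read 12.87, 12.82 and 12.85 on the KO-labelled arrays, against 12.81, 12.77 and 12.74 on the WT-labelled arrays. The labels did not overlap, but the difference of 0.07 had a 95% interval of -0.08 to 0.22. Rplp1 read 12.36, 12.15 and 12.28, against 12.08, 11.94 and 12.06, again without overlap (difference 0.23, adjusted p = 0.0652 in limma). Rplp2 differed by 0.20 (95% interval -0.12 to 0.52). Under other settings Rplp1 was called higher, with a term for the replicate 3 arrays (adjusted p = 0.0201), with a trend in the variance (0.0431) and without the KO-labelled replicate 3 array (0.29, adjusted p = 0.0414), in limma. Rplp2 was called higher with the replicate 3 term (limma adjusted p = 0.0335). Rpl13a, which like Rplp0 is commonly used as a reference gene in PCR, read 12.34, 12.16 and 12.26 on the KO-labelled arrays, against 12.22, 12.15 and 12.28 on the WT-labelled arrays. The values overlapped and differed by 0.04 (95% interval -0.15 to 0.23). With each array centred on its median, the differences of Rpl13a and Rplp0 turned to -0.04 and -0.01.

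Grouped by origin, 7 of the 28 members with bacterial and archaeal relatives were higher (25%) and 1 lower (3.57%), with a median change of 0.04. Of 36 members without bacterial relatives, 8 were higher (22.2%) and 1 lower (2.78%), with a median of 0.07. The shares of all genes were 22.6% higher and 19.2% lower. The other 3 members are the paralogues Rpl3l, Rpl39l and Rps27l. For the 11 genes with a TOP run at an annotated start the median change of the brightest probe set was 0.04 (range -0.01 to 0.99), and for the 42 without it was 0.04 (range -0.10 to 0.63). The 42 can hold TOP genes whose annotated start is off by a few bases. This split therefore cannot compare genes with and without a TOP tract.

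Some ribosomal proteins have a second gene with restricted expression. Rpl39l, the paralogue of Rpl39 known from testis, had 5.37, 5.59 and 5.15 on the KO-labelled arrays, against 4.68, 4.79 and 4.75 on the WT-labelled arrays. The groups did not overlap and the change was 0.63 (standard error 0.119, adjusted p = 0.00608 in limma). Rpl3l, the striated muscle paralogue of Rpl3, had 5.21, 4.94 and 4.85 on the KO-labelled arrays, against 4.64, 4.57 and 4.74 on the WT-labelled arrays. Its change of 0.35 passed over genes (adjusted p = 0.0466 in limma) and not over probe sets (adjusted p = 0.0567). Both lay below the median level of all probe sets, which was 5.6 to 5.7 on the arrays. The brightest probe sets of the parent genes differed by -0.08 for Rpl39 and 0.04 for Rpl3. The dim Rpl39 probe set, with a mean level of 6.37, changed by 0.78. Rpl22l1 and Rpl36al, paralogues outside the symbol rule, differed by 0.18 and 0.17 without being called. Rpl7l1, also outside the rule, was called higher at 1.12, while its brightest probe set, at 0.19, was not called. Paralogue and parent are read by different probe sets, and an exact permutation test of 3 against 3 arrays cannot go below 0.1, so no test between them is given.

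Replicate 3 stood apart under both labels. The median level of the 67 genes, by brightest probe set, was 12.43, 12.19 and 12.40 on the KO-labelled arrays of replicates 1, 3 and 5, against 12.36, 12.12 and 12.29 on the WT-labelled arrays. The replicate 3 arrays were the lowest of each label. The mean of 18 control probe sets for spiked bacterial and phage transcripts was 8.87 on the KO-labelled and 8.86 on the WT-labelled replicate 3 array, against 10.0 to 10.1 on the other arrays. Its part in the results was not tested beyond the fits that follow. With a term for the replicate 3 arrays, 23 probe sets of members were higher and 2 lower in limma, against 19.4% and 18% of all probe sets. On the 4 arrays of replicates 1 and 5 alone, 9 were higher and 2 lower, against 12.9% and 12.8% of all. Without the KO-labelled replicate 3 array, 12 were higher and 2 lower, against 15.6% and 14.7% of all. Without the WT-labelled replicate 5 array, 12 were higher and 3 lower, against 14.2% and 14.4% of all. By gene, 11 were higher without the KO-labelled replicate 3 array (21.3% of all genes) and 11 without the WT-labelled replicate 3 array (19.1%). Of the 19 genes called, 11 were called whichever array was left out, namely Rpl22, Rps20, Rps13, Rps15a, Rpl15, Rps24, Rpl39, Rpl21, Rpl39l, Rpl13 and Rpl17. The calls of Rps10, Rpl9, Rpl11, Rpsa, Rpl14, Rpl23, Rpl41 and Rpl3l were lost without at least 1 array.

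**Figure D4:**
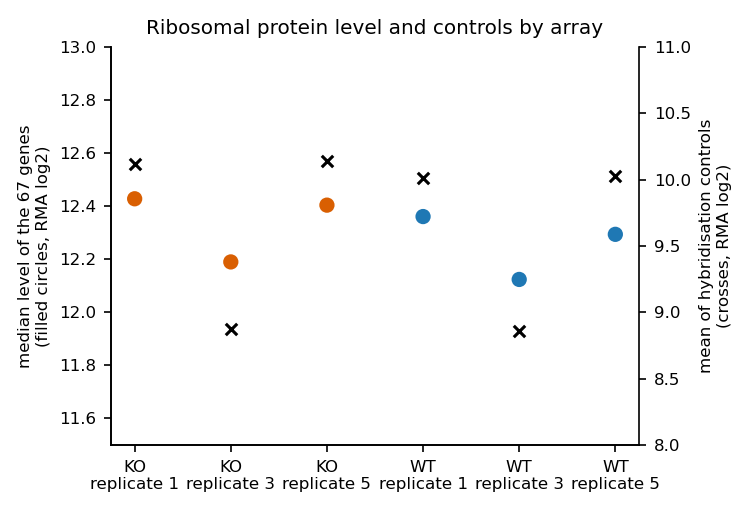
Median level of the 67 ribosomal protein genes by brightest probe set (filled circles, left axis, RMA log2) and mean of 18 hybridisation control probe sets (crosses, right axis, RMA log2) on each array, KO-labelled in orange and WT-labelled in blue. Neither axis starts at 0; both measures are lowest on the replicate 3 array of each label, at 12.19 and 12.12 for the members.

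Other genes of translation were counted in the same fit, by most variable probe set. Over all genes, 22.6% were called higher and 19.2% lower by this choice. In the 6 lists below, in order, 28.8%, 27.6%, 27.3%, 12.5%, 37.5% and 20% were higher. The shares lower were 11%, 3.45%, 0%, 6.25%, 0% and 0%. Of 73 mitochondrial ribosomal proteins, which build the separate ribosome of that organelle, 21 were higher and 8 lower, with a median change of 0.14. Mrpl19 changed by 1.91, Mrps31 by 1.36 and Mrps5 by 1.16. The brightest probe set of Mrpl19 was not called, at 0.51. Of 29 initiation factors, 8 were higher and 1 lower (median 0.20), the largest changes being 3.25 for the scaffold factor Eif4g3, 0.96 for the cap-binding Eif4e2 and 0.91 for Eif4g2. The brightest probe sets of Eif4e2 and Eif4g2 were not called, at 0.08 and 0.22. Of 11 elongation and termination factors, 3 were higher and 8 were not called (median 0.14), Gspt2 by 2.23, Eef1g by 0.91 and Etf1 by 0.76. The brightest probe set of Eef1g was not called, at 0.08. Of 16 genes known for TOP mRNAs, 11 of which also stand in another of these lists, 2 were higher, Eef1g and Nap1l1 (0.79), and 1 was lower, Eif3f (-0.74), whose brightest probe set was called higher, at 0.24 (adjusted p = 0.0233 in limma). Of 8 genes of translational control by mTORC1, 3 were higher and 5 were not called, namely the initiation inhibitors Eif4ebp1 (0.91) and Eif4ebp2 (0.69) and the kinase Mtor (0.46), whose brightest probe set was not called, at 0.43. Of 5 ribosomal proteins and paralogues outside the symbol rule, Rpl7l1 (1.12) was higher and its brightest probe set, at 0.19, was not called, while Fau differed by -0.20 and Rps3a1 by 0.01 without passing.

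**Figure D5:**
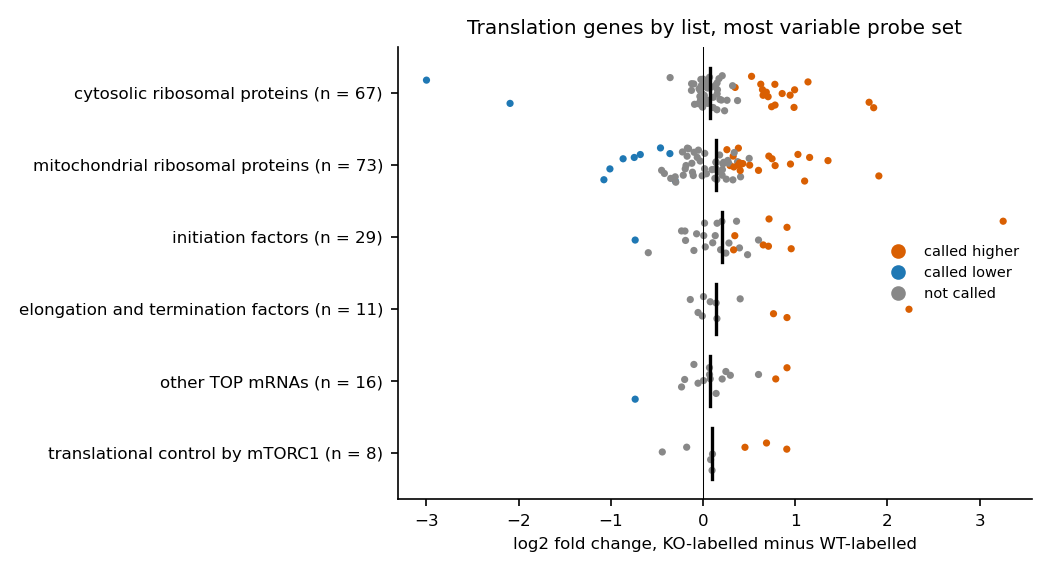
Log2 fold change (x axis, KO-labelled minus WT-labelled arrays) of the genes of 6 translation lists (rows) by most variable probe set, with points coloured by call, spread vertically at random for legibility, and the median as a black bar. The medians lie between 0.07 and 0.20, and cytosolic ribosomal proteins hold the lowest values of all lists, at -3.0 and -2.09.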

How the data were processed

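RNA of 6 samples labelled CD98hc KO or WT (3 each) was amplified as cDNA and hybridised to Affymetrix mouse expression arrays. The authors deposited log2 values per probe set, which RMA had background-corrected, normalised across the arrays and combined over the probes of each probe set (in affyPLM, by the paper's methods). Scanner images and detection calls were not used, and having 6 arrays limits the precision. Gene symbols came from the platform annotation.

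Of 45141 probe sets, 104 controls were left out. The remaining 45037 were fitted in limma 3.58.1 (R 4.3.3, lmFit and eBayes), KO-labelled minus WT-labelled, with Benjamini-Hochberg adjustment over probe sets, and over 17097 genes with the most variable probe set standing for each. A call is an adjusted p under 0.05 at any fold. The authors' model had the scan batch as covariate, and since the sources used here do not give it, the fit had none. The calculation was tested on simulated data before use. The members and lists were chosen with earlier results of these data known. The list medians and counts are descriptions, with no list test.

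Genes named are the 8 largest and 8 smallest changes among members called by most variable probe set, Rps6, Rplp0, Rplp1, Rplp2, Rpsa, Rpl13a, Rpl11, the paralogue pairs, genes with probe sets called in both directions, the 3 or fewer strongest changes of each list, and Slc3a2. Rpl21, Rpl9, Fau and Rps3a1 were named after their values were seen. Intervals are 95% from limma. Alternatives were a replicate block, a term for the replicate 3 arrays, each array left out, replicates 1 and 5 alone, median centring, quantile normalisation, a filter on dim probe sets, a variance trend, the brightest or mean probe set, no _x_at or _s_at probe sets, and a 2-fold limit. Same-numbered arrays deviated together at correlations of 0.057, 0.558 and 0.152, so the numbers were not taken as pairs. Promoter sequences came from RefSeq (GRCm38.p6). Plots used matplotlib 3.10.9 (Python 3.11.15).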

Additional observations from a re-analysis of the deposited data

How the results depend on the processing

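Across the alternatives, 67 of the summary counts and medians kept within the limits set for them and 12 moved. With the replicate number as a block, 20 probe sets and 17 genes were higher and 3 probe sets and 3 genes lower, and the numbers were not shown to pair the arrays. With the block, 18.6% of all probe sets were higher and 17.4% lower, and 25% and 21.1% of all genes. Under this block Rps6 was lower (-0.357, adjusted p = 0.0262 in limma) and Rplp1 higher (0.234, adjusted p = 0.0353). With a term for the replicate 3 arrays, 21 genes were higher and 2 lower, against 25.8% and 21.5% of all genes. On replicates 1 and 5 alone, 9 probe sets and 8 genes were higher, against 12.9% of all probe sets and 18.7% of all genes. By brightest probe set 4 genes were higher and 0 lower, against 21.3% and 18.2% of all. Without _x_at and _s_at probe sets 1 probe set and 1 gene were lower, against 15.8% and 19.2% of all. With a 2-fold limit 4 probe sets and 3 genes were higher, against 6.35% and 9.27% of all. With 1 array left out, 12 to 23 probe sets and 11 to 19 genes were higher, and 2 to 3 of each lower. In the same fits 13.7% to 15.6% of all probe sets and 19.1% to 21.3% of all genes were higher. The shares lower were 13.4% to 14.7% and 16.7% to 18.1%. Of the comparisons of named genes, 371 kept direction and call, 48 lost the call, 8 gained it and 18 changed sign. By brightest probe set Rps20 was -0.0475, Rpl39 -0.0759, Rpsa -0.0211, Rpl41 -0.0265, Rpl13 0.409, Rps6 0.0313 and Rpl7 0.0733. Without _x_at and _s_at probe sets Rpl13 was 0.409 and Rpl7 0.063. After centring on array medians, which moved the median change of all probe sets to -0.072, Rplp0 was -0.00631, Rpl13a -0.0367 and Rpl3 -0.0372. With 1 array left out Rpl13a ranged from -0.0029 (without KO-labelled replicate 1) to 0.0874. Rpl7, at -0.018 by most variable probe set, was 0.0109 on replicates 1 and 5, 0.00091 after quantile normalisation, 0.0393 by the mean of its probe sets, 0.0233 without WT replicate 1, and -0.0544 to 0.0457 over all the arrays left out in turn, the highest without KO-labelled replicate 3. The values that turned without an array or on replicates 1 and 5 had fewer arrays. For the others the cause was not tested.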
